A study of Mus musculus with 12 samples.

Results

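The MHC class II presentation genes examined here are H2-Aa, H2-Ab1, H2-Eb1, Cd74, Ciita, H2-DMa and H2-Oa. Every probe set whose annotation carries exactly 1 of these gene symbols was taken, which gave 15 probe sets for the 7 genes, of 45037 probe sets and 18193 genes in all. They are described in 4 populations of mouse bone marrow progenitors sorted by flow cytometry, each measured on 3 Affymetrix mouse arrays. The cells came from female C57BL/6 mice aged 4 to 6 weeks, with no genetic change or treatment named in the labels. All 4 populations lacked lineage markers and Sca-1 and carried CD117, the receptor of stem cell factor. CD27+ common myeloid progenitors (CMP) were sorted as CD34+ CD16/32- CD27+ cells, and CD27- CMP as CD34+ CD16/32- CD27- cells. Granulocyte-monocyte progenitors (GMP) were CD34+ CD16/32+ CD27+, and megakaryocyte-erythrocyte progenitors (MEP) were CD34- CD16/32- CD27-. The labels name the 3 arrays of each group as biological replicates without giving animals or pools, so the tests measure the spread between arrays, which may be technical.

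MHC class II molecules are dimers of an alpha and a beta chain that carry peptides of taken-up proteins to the cell surface, where CD4+ T cells read them. H2-Aa and H2-Ab1 encode the alpha and beta chains of the mouse A dimer, and H2-Eb1 encodes the beta chain of the E dimer. C57BL/6 mice do not form the E dimer because their gene for the E alpha chain is defective. Cd74 encodes the invariant chain, which fills the peptide groove of new dimers and leads them to endosomes. There DM, made of an H2-DMa and an H2-DMb chain, exchanges the remnant of the invariant chain for peptides, and DO, made of an H2-Oa and an H2-Ob chain, restrains DM. Ciita encodes the coactivator that switches on most of these genes in dendritic cells, B cells and macrophages.

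CIITA does not bind DNA. It is recruited by factors on a shared promoter module, in which an X box bound by the RFX complex and CREB lies ahead of a Y box bound by NF-Y. RefSeq promoter windows of GRCm38.p6, from 250 bases before to 50 bases after the start site, were matched by symbol to 4 of the 7 genes: H2-Oa, H2-DMa, H2-Aa and H2-Eb1. They are shown because the module is the textbook meeting point of class II genes, and because these windows differ in whether its letters were found. Capitals mark the letters GCAAC, a core of the X box, and CTGATTGG, a Y box. The windows are chr17:34092129-34092428 on the plus strand for H2-Oa, chr17:34287774-34288073 on the minus strand for H2-Aa, chr17:34305617-34305916 on the plus strand for H2-Eb1 and chr17:34122582-34122881 on the plus strand for H2-DMa.
H2-Oa: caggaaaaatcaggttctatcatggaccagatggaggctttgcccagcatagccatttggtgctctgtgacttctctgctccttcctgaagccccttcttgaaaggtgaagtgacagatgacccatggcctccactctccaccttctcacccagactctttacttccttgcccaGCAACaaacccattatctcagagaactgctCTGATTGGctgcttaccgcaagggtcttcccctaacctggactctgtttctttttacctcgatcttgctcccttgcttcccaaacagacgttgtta
H2-Aa: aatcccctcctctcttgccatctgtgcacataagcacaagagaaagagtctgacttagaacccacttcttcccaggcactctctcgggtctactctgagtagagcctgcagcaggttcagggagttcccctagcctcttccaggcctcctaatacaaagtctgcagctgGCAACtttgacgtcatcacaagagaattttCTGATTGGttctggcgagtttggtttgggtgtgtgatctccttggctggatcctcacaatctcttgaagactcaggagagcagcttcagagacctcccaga
H2-Eb1: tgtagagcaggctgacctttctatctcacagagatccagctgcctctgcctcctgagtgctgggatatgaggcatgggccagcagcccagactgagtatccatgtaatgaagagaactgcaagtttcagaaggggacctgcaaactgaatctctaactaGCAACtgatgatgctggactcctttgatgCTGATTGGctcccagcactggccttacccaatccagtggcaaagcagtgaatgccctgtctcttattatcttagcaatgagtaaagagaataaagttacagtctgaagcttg
H2-DMa: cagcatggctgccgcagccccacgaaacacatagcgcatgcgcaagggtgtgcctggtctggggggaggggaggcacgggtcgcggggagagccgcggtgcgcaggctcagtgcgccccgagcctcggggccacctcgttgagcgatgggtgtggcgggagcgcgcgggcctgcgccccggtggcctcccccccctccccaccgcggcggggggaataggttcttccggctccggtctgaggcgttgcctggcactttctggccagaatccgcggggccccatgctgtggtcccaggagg

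The letters CTGATTGG began 46 bases before the start site of H2-Oa, 51 before that of H2-Aa and 62 before that of H2-Eb1. In each of these windows GCAAC lay ahead of it on the same strand, with 25 bases between the motifs in H2-Oa, 25 in H2-Aa and 24 in H2-Eb1. The H2-Aa window also held TGACGTCA, a CREB motif, between them. Both strands were searched, and CTGATTGG contains the shorter CCAAT-box letters ATTGG. CTGATTGG occurred in 4.1% of 32851 promoter windows, GCAAC in 35.2%, ATTGG in 37.4% and TGACGTCA in 1.79%. GCAAC from 10 to 40 bases ahead of CTGATTGG occurred in 21 windows, or 0.0639%, a distance chosen after these sequences had been seen. H2-DMa has 2 windows in the table, and neither held CTGATTGG. Among 11 other genes of the pathway with windows, H2-Eb2 alone held CTGATTGG, in 1 of 14 windows or 7.14%, while H2-DMb2, H2-Ob, Ctss and Lgmn did not. Of the H2-DMa windows, the first held GCAAC on the minus strand alone and the second, at chr17:34125268-34125567 on the plus strand, held ATTGG. A match of letters is a description of the window and not evidence of a bound site. Only these exact letters were searched, so a window without them may still hold the module in other letters.

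The deposited log2 values are centred on the median array of each probe set, so that 0 stands for the middle of that probe set over the 12 arrays. They show differences between populations and carry no absolute level, and levels are not compared between genes. Over all probe sets the range across the 12 arrays had a median of 0.462 log2, and 51.1% spanned less than 0.5. A probe set as flat as that can be silent everywhere or equally active in the 4 populations. Array medians lay between -0.0267 and 0.0549. The sort markers were checked on the arrays. Cd27 lay at 3.92 to 4.19 in CD27+ CMP and -3.22 to -2.36 in CD27- CMP, and at 2.36 to 3.13 in GMP and -3.14 to -2.94 in MEP, as the gates have it. Cd34 and Fcgr3, a gene of CD16/32, did not follow the gates throughout. CD27- CMP, sorted as CD34+, read -2.85, -2.88 and -3.93 for Cd34, against 4.00 to 4.20 in CD27+ CMP, 2.85 to 3.13 in GMP and -6.59 to -3.17 in MEP, which were sorted as CD34-. CD27- CMP and MEP differed for Cd34 by 1.69 log2 (SE 0.70, adjusted p = 0.78), so results for CD27- CMP refer to the arrays labelled so. Fcgr3 read 3.65, 1.92 and 1.04 in CD27+ CMP and -2.63 to -2.39 in CD27- CMP, both sorted without CD16/32, against 6.80 to 7.35 in GMP and -2.51 to -1.04 in MEP. The CMP fractions differed for Fcgr3 by 4.71 log2 (SE 0.60, adjusted p = 0.00034). In sorted bulk populations, fewer cells of a type and less RNA per cell cannot be told apart.

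Of the 15 probe sets, the 2 of H2-DMa and the 1 of H2-Oa carried every difference that passed the test. H2-DMa was highest in CD27+ CMP and H2-Oa was higher in CD27+ CMP than in MEP. The probe sets of the classical chains H2-Aa, H2-Ab1 and H2-Eb1, of Cd74 and of Ciita passed in no comparison. There were 7 flat probe sets among the 15, with ranges under 0.5 log2, and these included every probe set of H2-Eb1, Cd74 and Ciita. A range of at least 1 log2 was found for 6: both of H2-DMa, that of H2-Oa and the 3 of H2-Ab1.

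**Figure D1:**
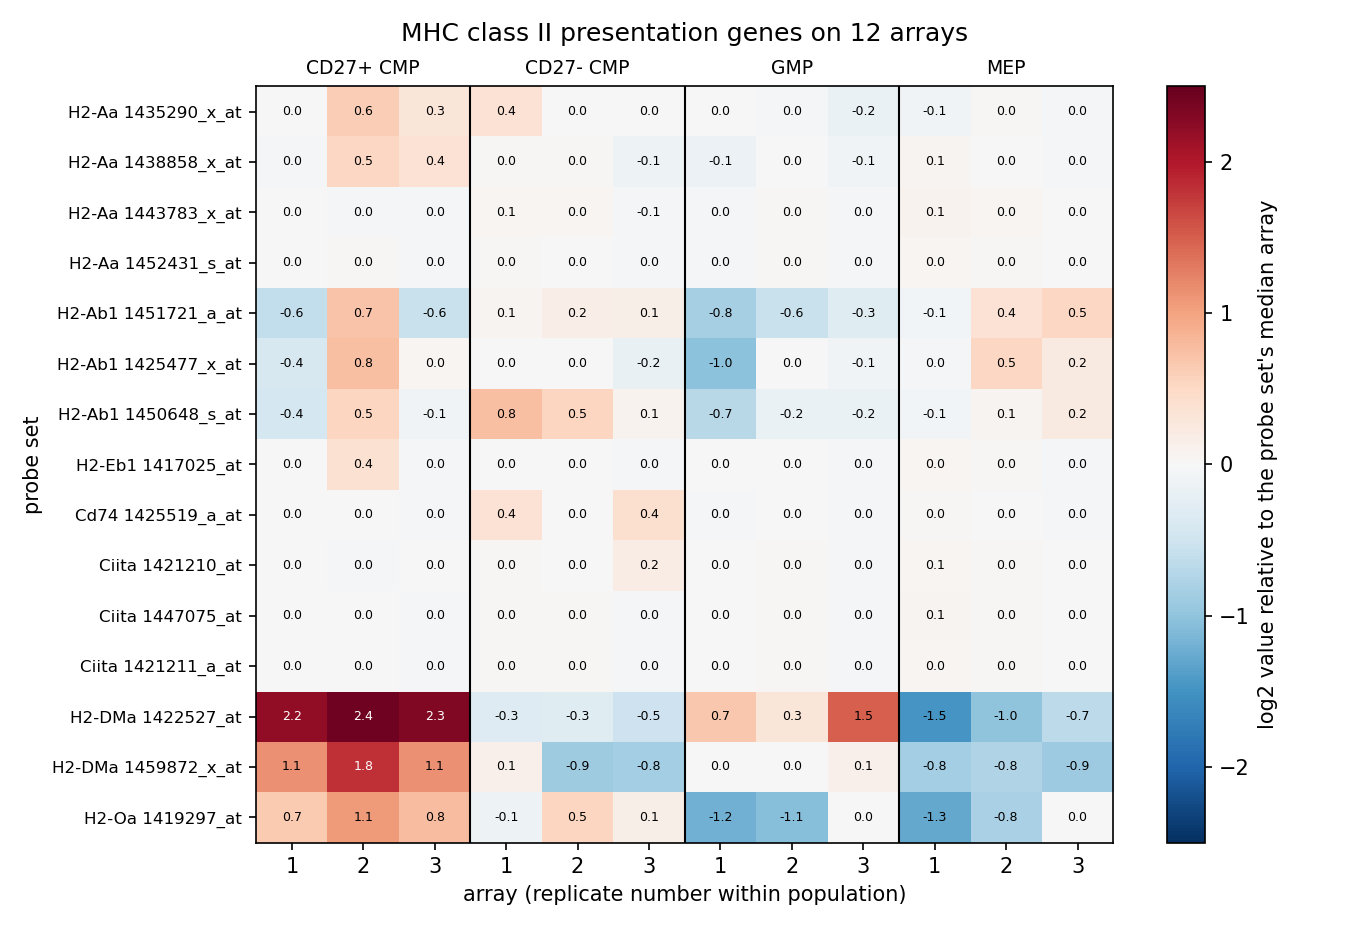
Deposited log2 value of each of the 15 MHC class II probe sets (rows) on each of the 12 arrays (columns, 3 per population), relative to the median array of the probe set. The H2-DMa probe sets are highest on all 3 CD27+ CMP arrays, up to 2.44, while the rows of Cd74, Ciita and H2-Eb1 stay within 0.40 of 0.

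H2-DMa encodes the alpha chain of the peptide editor DM. Probe set 1422527_at read 2.21, 2.44 and 2.31 in CD27+ CMP, -0.32, -0.31 and -0.51 in CD27- CMP, 0.68, 0.31 and 1.49 in GMP and -1.47, -1.00 and -0.65 in MEP. All CD27+ CMP arrays lay above all GMP arrays, all GMP arrays above all CD27- CMP arrays, and all CD27- CMP arrays above all MEP arrays. The means were 2.32 ± 0.12 in CD27+ CMP, -0.38 ± 0.11 in CD27- CMP, 0.83 ± 0.60 in GMP and -1.04 ± 0.41 in MEP (SD, n = 3 each). The second probe set, 1459872_x_at, read 1.15, 1.83 and 1.15 in CD27+ CMP, 0.12, -0.89 and -0.84 in CD27- CMP, 0.00, -0.00 and 0.12 in GMP and -0.85, -0.76 and -0.90 in MEP. It also put all CD27+ CMP arrays above the other 9. Its ending marks probes that may bind other transcripts.

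Between the CMP fractions, H2-DMa was higher in CD27+ CMP than in CD27- CMP by 2.70 log2 on 1422527_at (SE 0.29, 6.49-fold, limma adjusted p = 0.00016). On 1459872_x_at the difference was 1.91 log2 (SE 0.27, adjusted p = 0.001). Both calls held under each alternative run, and differences ran from 2.63 to 2.75 and from 1.69 to 2.24 log2 when 1 array was left out. These 2 probe sets were all that was called of the 15, or 13.3%, beside 14.1% of all probe sets in this comparison, a share near the background. An unadjusted p under 0.05 was found for 4 of the 15. The members' median difference was -0.00 log2, against -0.02 over all probe sets.

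GMP stood above MEP for H2-DMa by 1.87 log2 on 1422527_at (SE 0.29, 3.65-fold, adjusted p = 0.0016). On 1459872_x_at the GMP arrays also lay above the MEP arrays, by 0.88 log2, with an adjusted p of 0.063 that became 0.00059 in a fit to the 6 arrays alone. This was 1 of 15 probe sets called, or 6.67%, beside 14.8% of all probe sets. Whether the difference between GMP and MEP equalled that between the CMP fractions was tested directly. The CMP difference exceeded the other by 0.83 log2 on 1422527_at (95% interval -0.09 to 1.75, adjusted p = 0.9) and by 1.03 log2 on 1459872_x_at (0.17 to 1.90, adjusted p = 0.53). In that test limma called 0 of the 15 probe sets, 2 with an unadjusted p under 0.05, beside 1.10% of all.

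Among CD27-bearing populations, CD27+ CMP exceeded GMP for H2-DMa by 1.49 log2 on 1422527_at (2.81-fold, 95% interval 0.84 to 2.14, adjusted p = 0.025) and by 1.34 log2 on 1459872_x_at (adjusted p = 0.031). These were the 2 of 15 probe sets called, 13.3% beside 3.04% of all probe sets, and 5 had an unadjusted p under 0.05. The calls rested on the full set of arrays. On 1422527_at leaving out 1 array gave 1.23 to 1.82 log2 with adjusted p from 0.0038 to 0.096, and the call was lost without any 1 of the CD27+ CMP arrays or without GMP replicate 1 or 2. On 1459872_x_at it was lost without any of the 6 arrays, with adjusted p from 0.054 to 0.11. A fit to the 6 arrays alone gave adjusted p of 0.15 and 0.072. With the replicate number as a block, 1459872_x_at lost its call (adjusted p = 0.072).

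The remaining pairs of populations set H2-DMa apart at its extremes. CD27+ CMP exceeded MEP by 3.36 log2 on 1422527_at (10.2-fold, adjusted p = 3.4e-05) and by 2.21 log2 on 1459872_x_at (adjusted p = 0.00035). With H2-Oa these made 3 of 15 called, or 20%, beside 16.0% of all probe sets. CD27- CMP lay below GMP by -1.21 log2 on 1422527_at (adjusted p = 0.02), the 1 probe set of 15 called, beside 14.2% of all. That call was lost without any 1 of the CD27- CMP arrays, where adjusted p ran from 0.052 to 0.054, and in a fit to the 6 arrays alone, at 0.094. CD27- CMP and MEP differed by 0.66 log2 on 1422527_at, with no overlap of arrays and an adjusted p of 0.79. In that comparison limma called 0 of the 15, 3 with an unadjusted p under 0.05, beside 0.0444% of all probe sets. The comparisons that share a population share its arrays and are not independent of each other.

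H2-DMb2 encodes a beta chain of DM, and H2-DMb1, the other, is read only by probe sets annotated to both genes, which were not used. H2-DMb2 read 2.77, 2.54 and 2.62 in CD27+ CMP, -0.62, -0.63 and -0.85 in CD27- CMP, 0.94, 0.59 and 1.51 in GMP and -0.59, -1.25 and -1.69 in MEP. The populations stood in the order seen for H2-DMa, with an overlap between CD27- CMP and MEP. The difference between CD27+ and CD27- CMP was 3.34 log2 (SE 0.29, adjusted p = 2.4e-05, over the genes), that between GMP and MEP was 2.19 log2 (adjusted p = 0.00036) and that between CD27+ CMP and GMP was 1.63 log2 (adjusted p = 0.011). The other H2-DMb2 probe sets did not pass between CD27+ CMP and GMP, with 1.23 log2 on 1 (adjusted p over probe sets 0.19) and 0.79 log2 on the other (0.52). Across the 12 arrays H2-DMa and H2-DMb2 had a Pearson r of 0.96, a description in which the 4 populations set most of the spread.

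**Figure D2:**
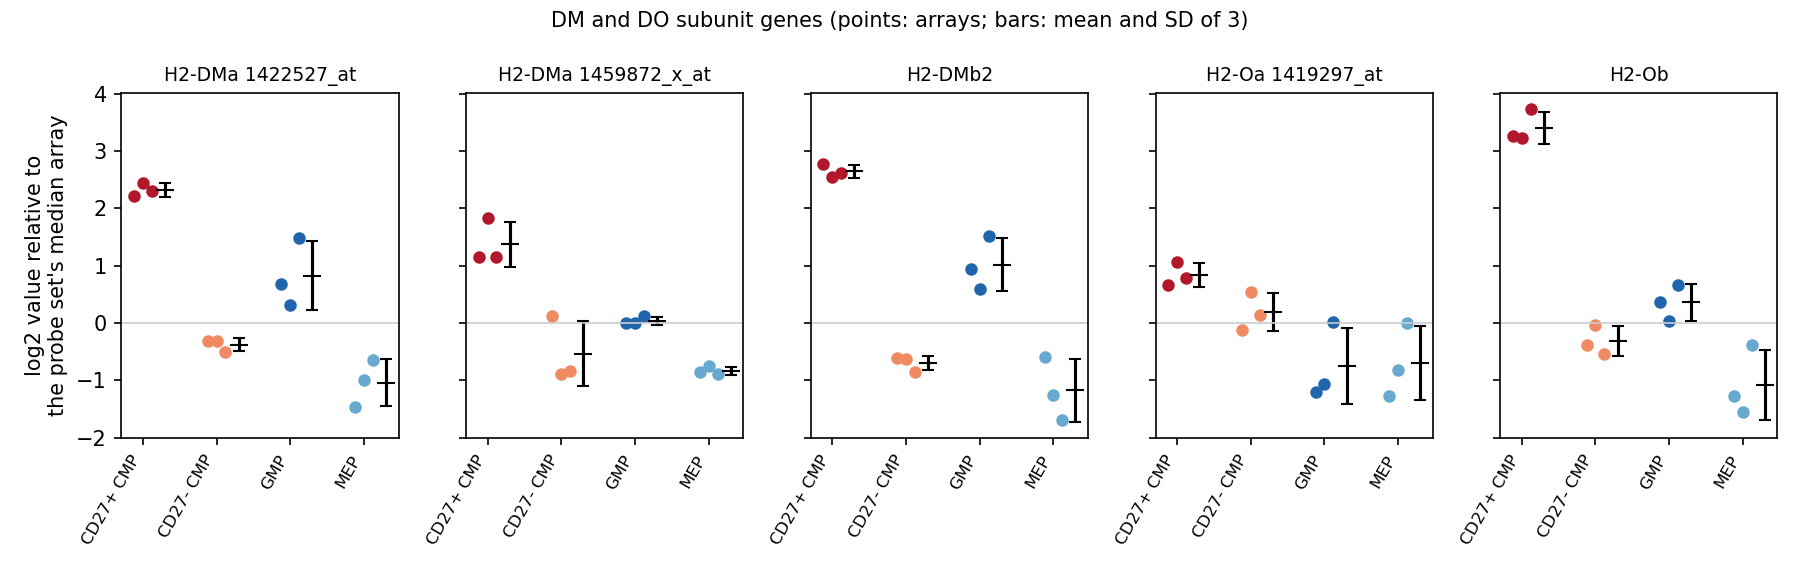
Log2 value relative to the probe set's median array (vertical axis) for the DM and DO subunit genes in the 4 populations. Points are arrays and bars are the mean and SD of 3. CD27+ CMP arrays lie above all other arrays in each panel, and GMP arrays lie above MEP arrays in the panels of H2-DMa, H2-DMb2 and H2-Ob but not of H2-Oa.

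H2-Oa encodes the alpha chain of DO, the brake on DM. It read 0.66, 1.06 and 0.78 in CD27+ CMP, -0.12, 0.54 and 0.14 in CD27- CMP, -1.21, -1.06 and 0.01 in GMP and -1.28, -0.82 and -0.01 in MEP. The CD27+ CMP arrays lay above all others. In both GMP and MEP, replicate 3 stood near 0 and the other arrays well below it.

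CD27+ CMP exceeded MEP for H2-Oa by 1.53 log2 (SE 0.39, 2.9-fold, adjusted p = 0.024). Leaving out 1 array gave 1.25 to 1.88 log2 with adjusted p from 0.0097 to 0.089, and the call was lost without 5 of the 6 arrays. It was also lost with quantile normalization, at an adjusted p of 0.057. The difference from GMP was of similar size, 1.58 log2 (95% interval 0.71 to 2.46), with an adjusted p of 0.075. It passed the test with the replicate number as a block (adjusted p = 0.047) and without GMP replicate 3, the GMP array at 0.01 (adjusted p = 0.022). The 5 fits that left out another array did not pass. Leaving out 1 array gave 1.36 to 1.97 log2 with adjusted p from 0.022 to 0.26. CD27+ and CD27- CMP differed by 0.64 log2 (95% interval -0.23 to 1.52, adjusted p = 0.4), with all CD27+ CMP arrays higher. GMP and MEP differed by -0.05 log2 (95% interval -0.93 to 0.83, adjusted p = 0.93), and the sign turned when single arrays were left out.

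H2-Ob, the beta chain of DO, read 3.27, 3.22 and 3.73 in CD27+ CMP, -0.38, -0.03 and -0.55 in CD27- CMP, 0.37, 0.03 and 0.67 in GMP and -1.28, -1.56 and -0.39 in MEP. All CD27+ CMP arrays lay more than 2 log2 above the other 9 arrays. CD27+ CMP exceeded CD27- CMP by 3.72 log2 (adjusted p = 1.7e-05) and GMP by 3.05 log2 (adjusted p = 0.00047), and GMP exceeded MEP by 1.43 log2 (adjusted p = 0.0072). Its Pearson r over the 12 arrays was 0.95 with H2-DMa and 0.72 with H2-Oa, the other chain of its dimer. H2-Oa and H2-DMa had an r of 0.63.

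For the chains that present peptide at the cell surface, no difference passed the test. H2-Ab1, the beta chain of A, is read by 3 probe sets that span 1.45 to 1.79 log2. On 1451721_a_at it read -0.61, 0.71 and -0.56 in CD27+ CMP, 0.06, 0.16 and 0.15 in CD27- CMP, -0.83, -0.56 and -0.30 in GMP and -0.06, 0.37 and 0.51 in MEP. CD27+ CMP replicate 2 stood more than 1 log2 above the other CD27+ CMP arrays and held the highest value of the 12. On 1425477_x_at the values were -0.40, 0.76 and 0.04 in CD27+ CMP, 0.01, -0.01 and -0.19 in CD27- CMP, -1.03, 0.01 and -0.08 in GMP and -0.03, 0.51 and 0.23 in MEP. On 1450648_s_at they were -0.44, 0.54 and -0.08 in CD27+ CMP, 0.76, 0.54 and 0.08 in CD27- CMP, -0.69, -0.16 and -0.16 in GMP and -0.07, 0.07 and 0.23 in MEP. No comparison passed on any of the 3 probe sets, and the lowest adjusted p was 0.093, for CD27- CMP over GMP on 1450648_s_at by 0.79 log2.

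H2-Aa, the alpha chain of A, is read by 4 probe sets, of which 1443783_x_at and 1452431_s_at spanned only 0.14 and 0.07 log2 over the 12 arrays. On 1438858_x_at it read -0.03, 0.52 and 0.37 in CD27+ CMP, 0.02, 0.02 and -0.12 in CD27- CMP, -0.14, -0.00 and -0.09 in GMP and 0.06, 0.00 and -0.02 in MEP. Here replicates 2 and 3 of CD27+ CMP stood above the other 10 arrays, and replicate 1 did not. The difference between CD27+ and CD27- CMP was 0.32 log2 (95% interval 0.05 to 0.58, adjusted p = 0.14). On 1435290_x_at the values were 0.01, 0.61 and 0.30 in CD27+ CMP, 0.36, -0.01 and -0.01 in CD27- CMP, 0.01, -0.04 and -0.16 in GMP and -0.08, 0.03 and -0.02 in MEP, and the CMP fractions overlapped.

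H2-Eb1 read 0.00, 0.38 and -0.03 in CD27+ CMP and lay between -0.03 and 0.04 on the other 9 arrays. The CMP fractions differed by 0.12 log2 (95% interval -0.08 to 0.33, adjusted p = 0.48). CD27+ CMP replicate 2 was thus the highest array for H2-Eb1, for the 2 H2-Aa probe sets that varied and for 2 of the 3 H2-Ab1 probe sets. The mean over the B cell markers was 0.29 log2 on that array, against 0.16 and 0.23 on CD27+ CMP replicates 1 and 3. The corresponding means were 0.76 against 0.75 and 0.71 for dendritic cell markers, 0.69 against 0.72 and 0.67 for macrophage markers, and 0.39 against 0.21 and 0.13 for T and NK cell markers. Single genes weighed on these means. On CD27+ CMP replicate 2 Cd79b read 2.78 and Vpreb1 1.47 log2 among the B cell markers. Thy1 read 1.98 and Nkg7 1.64 log2 among the T and NK cell markers. Of the 14 B cell markers 9 spanned under 0.5 log2 over the 12 arrays, and of the 9 T and NK cell markers 7 did. The part of other cells in the values of this array was not tested.

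Cd74, the invariant chain, read -0.00, -0.00 and -0.02 in CD27+ CMP, 0.36, 0.00 and 0.40 in CD27- CMP, -0.03, 0.01 and -0.02 in GMP and 0.02, 0.01 and -0.02 in MEP. Replicates 1 and 3 of CD27- CMP stood above the other 10 arrays. CD27+ CMP lay below CD27- CMP by -0.26 log2 (95% interval -0.46 to -0.07, adjusted p = 0.089). Without CD27- CMP replicate 2, the array at 0.00, the difference was -0.39 log2 and passed the test (adjusted p = 3.3e-05). Those of CD27- CMP from GMP and MEP were then 0.39 and 0.37 log2 (adjusted p = 3.1e-05 and 0.0043). In each of these comparisons the 5 fits that left out another array did not pass. Between the CMP fractions they reached as little as -0.19 log2, with adjusted p up to 0.25. On CD27+ CMP replicate 2, where H2-Aa, H2-Ab1 and H2-Eb1 were high, Cd74 was at -0.00.

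Ciita, the coactivator of the class II promoters, is read by 3 probe sets, all flat. On 1421211_a_at and 1447075_at it spanned 0.07 and 0.08 log2 over the 12 arrays, and on 1421210_at 0.24 log2, with 0.19 in CD27- CMP replicate 3 as the highest value. Because the absolute signal is lost, these values do not tell whether Ciita was silent or even.

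The genes of the region were also followed in their order on the chromosome. From H2-Oa to H2-Eb1 RefSeq lists 14 genes, 12 of them measured: H2-Oa, Brd2, H2-DMa, H2-DMb2, Psmb9, Tap1, Psmb8, Tap2, H2-Ob, H2-Ab1, H2-Aa and H2-Eb1. Between CD27+ and CD27- CMP 6 of the 12 passed, all higher in CD27+ CMP, beside 12.1% of all genes called higher, and they lay from H2-DMa to H2-Ob. Psmb8 and Psmb9, subunits of the immunoproteasome, exceeded by 2.07 log2 (SE 0.24, adjusted p = 0.00018) and 1.58 log2 (SE 0.21, adjusted p = 0.00046). Tap2, a chain of the peptide transporter of class I presentation, exceeded by 1.36 log2 (SE 0.18, adjusted p = 0.00039), and Tap1, the other chain, by 0.56 log2 with an adjusted p of 0.2. At the ends, Brd2, a chromatin reader, differed by 0.35 log2 (adjusted p = 0.13), and the genes from H2-Ab1 to H2-Eb1 did not pass.

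**Figure D3:**
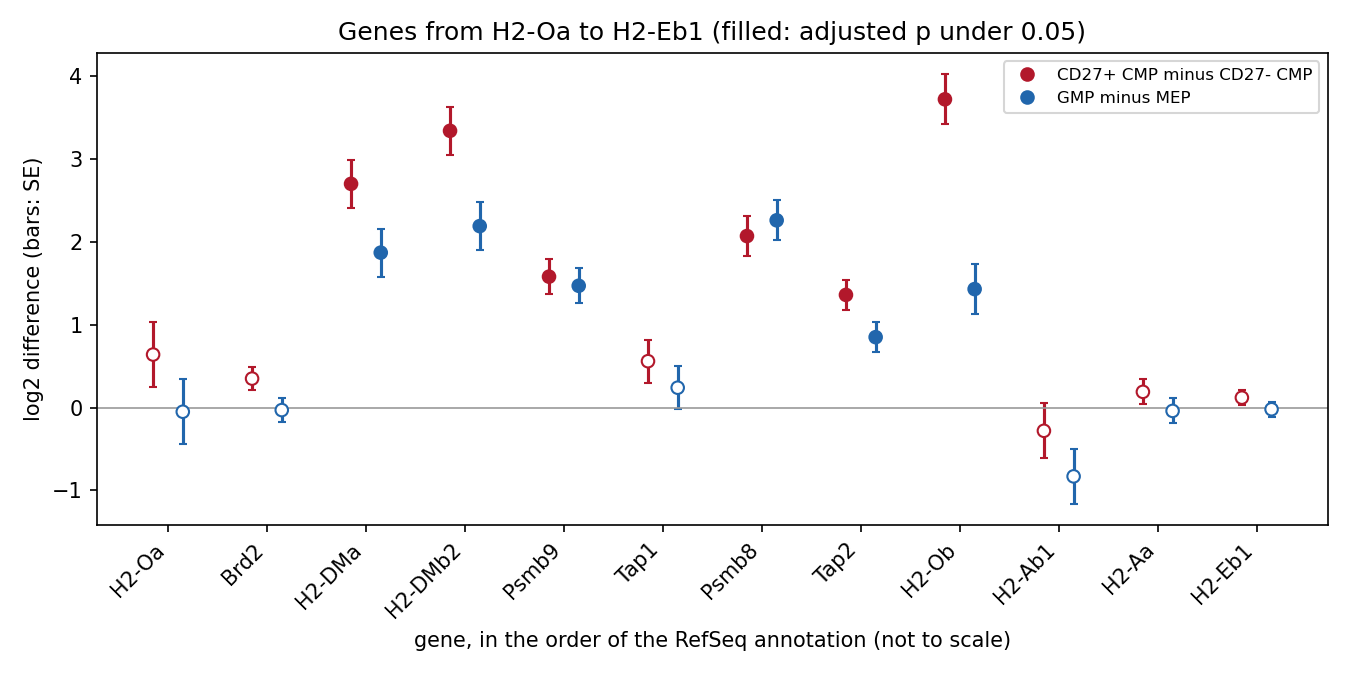
Log2 difference with its SE (vertical axis) of the 12 measured genes from H2-Oa to H2-Eb1, in RefSeq order and not to scale, for CD27+ minus CD27- CMP (red) and GMP minus MEP (blue). Filled points passed the test; the 6 filled red points lie between H2-DMa and H2-Ob, and H2-Ob has the highest, at 3.72.

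The rest of the class II pathway was followed with a list of proteases, DM and DO partners and regulators of class II turnover, 12 of whose genes were measured. Between CD27+ and CD27- CMP, 5 of the 12 were higher and 4 lower, beside 12.1% of all genes called higher and 10.3% called lower. The median of the list was -0.08 log2, against -0.03 over all genes. Beside H2-DMb2 and H2-Ob, the higher genes were 3 endosomal proteases that trim the invariant chain or antigens. Ctss, cathepsin S, differed by 6.78 log2 (adjusted p = 2.3e-07), Lgmn, legumain, by 3.02 log2 (adjusted p = 0.0002) and Ctsb, cathepsin B, by 0.94 log2 (adjusted p = 0.048). Other Ctsb probe sets gave 0.98 and 0.76 log2 (adjusted p over probe sets 0.028 and 0.03), and 0.47 and 0.35 log2 without passing (0.52 and 0.27).

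Ctss read 4.44, 4.33 and 4.18 in CD27+ CMP, -2.11, -2.89 and -2.40 in CD27- CMP, 2.47, 2.11 and 2.57 in GMP and -2.63, -3.20 and -3.74 in MEP. Its order was that of H2-DMa, with an r of 0.94 over the 12 arrays. Lgmn read 1.92, 3.53 and 3.52 in CD27+ CMP and between -0.07 and 0.03 on the other 9 arrays. It differed between CD27+ CMP and GMP by 3.01 log2 (adjusted p = 0.0013) and between GMP and MEP by -0.02 log2.

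The lower genes included the remaining cathepsin and an enzyme of antigen unfolding. Ctsl, cathepsin L, differed by -1.28 log2 between CD27+ and CD27- CMP (adjusted p = 0.00025), although a second Ctsl probe set gave -0.02 log2. Ifi30, the lysosomal thiol reductase, read -0.84, -0.14 and -0.69 in CD27+ CMP, 0.70, 0.27 and 0.14 in CD27- CMP, -1.24, -0.89 and -0.87 in GMP and 0.65, 0.67 and 0.81 in MEP. It differed between the CMP fractions by -0.93 log2 (adjusted p = 0.0083). Marchf8, a ubiquitin ligase of the family that removes class II from the surface, differed by -2.63 log2 (adjusted p = 7.9e-05) and Sppl2a, the protease that clears the invariant chain stub, by -0.72 log2 (adjusted p = 0.017). The other Sppl2a probe sets gave -0.07 and 0.34 log2.

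In GMP against MEP 4 of the 12 were higher and 4 lower, beside 11.5% and 11.2% of all genes. Ctss differed by 5.57 log2 and Ctsb by 1.29 log2, while Ifi30 differed by -1.71 log2 and Marchf8 by -2.29 log2. In CD27+ CMP against GMP 4 were higher and 1 lower, beside 2.58% and 2.63% of all genes. The higher ones were H2-DMb2, H2-Ob, Lgmn and Ctss, the last by 1.93 log2 (adjusted p = 0.004), and the lower one was Ctsl at -0.68 log2 (adjusted p = 0.04), a call lost without 5 of the 6 arrays and with the replicate number as a block (adjusted p = 0.074). H2-Eb2 and Marchf1 were flat, and H2-Ea, the defective E alpha gene, differed between the CMP fractions by -0.66 log2 without passing.

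Of the factors that act on class II promoters or in the interferon gamma pathway that induces Ciita, 18 were measured. Between CD27+ and CD27- CMP 9 were higher and 2 lower, beside 12.1% and 10.3% of all genes. The list median was 0.37 log2, against -0.03 over all genes. Irf8 and Spi1, factors of monocyte and dendritic cell development, had the widest differences, 7.69 log2 (adjusted p = 7e-06) and 5.39 log2 (adjusted p = 2.1e-05). Irf1, which acts on Ciita downstream of interferon gamma, differed by 3.37 log2 (adjusted p = 0.00013). The subunits of the RFX complex were split: Rfx5 differed by 1.01 log2 (adjusted p = 0.003), Rfxap by -1.41 log2 (adjusted p = 0.00021) and Rfxank by -0.81 log2 (adjusted p = 0.071). The interferon gamma receptor chains were split as well, with Ifngr2 at 2.25 log2 (adjusted p = 0.00033) and Ifngr1 at -1.30 log2 (adjusted p = 0.00079). A second Ifngr2 probe set gave 0.02 log2 (adjusted p over probe sets 0.95).

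In GMP against MEP 6 of the 18 were higher and 3 lower, beside 11.5% and 11.2% of all genes, with a list median of 0.11 log2 against -0.04. Irf8 exceeded by 8.28 log2 (adjusted p = 3.6e-06) and Spi1 by 5.99 log2 (adjusted p = 8.9e-06). In CD27+ CMP against GMP 2 were higher and 1 lower, beside 2.58% and 2.63% of all genes. In that comparison Irf2 differed by 0.86 log2 (adjusted p = 0.0044), the kinase gene Jak1 by 0.53 log2 (adjusted p = 0.044) and Ifngr1 by -1.71 log2 (adjusted p = 0.00088). There Spi1 differed by 0.47 log2 (adjusted p = 0.99) and Irf8 by 1.03 log2 (adjusted p = 0.54), with all CD27+ CMP arrays above all GMP arrays for Irf8. Whether these differences were smaller than those of H2-DMa and its partners was not tested. H2-DMa and Irf8 had a Pearson r of 0.90 over the 12 arrays.

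**Figure D4:**
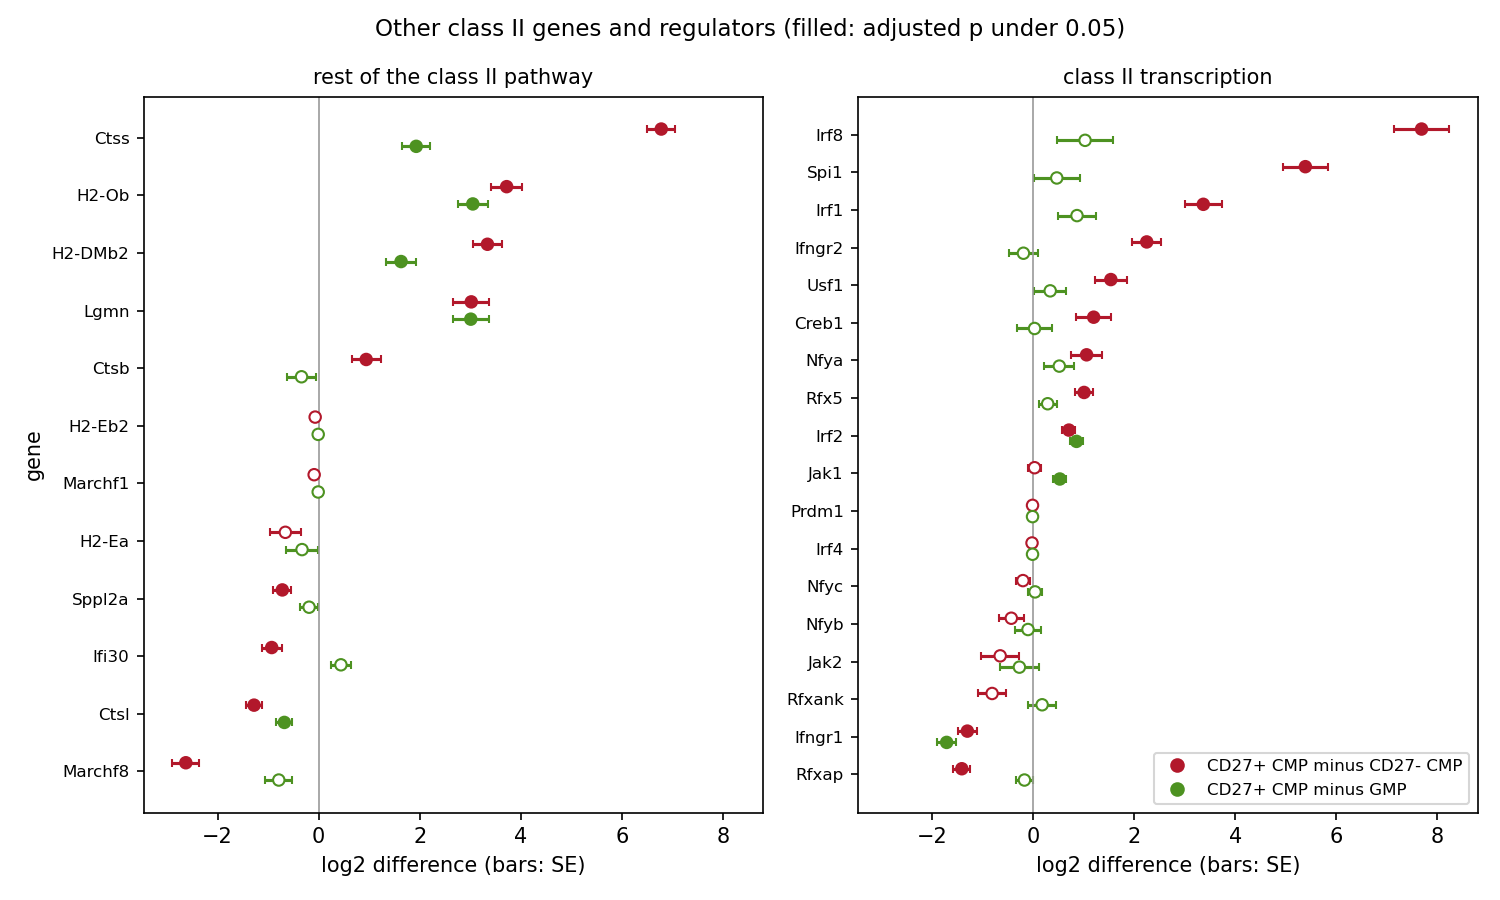
Log2 difference with its SE (horizontal axis) of the genes of the rest of the class II pathway (left) and of class II transcription (right), for CD27+ minus CD27- CMP (red) and CD27+ CMP minus GMP (green). Filled points passed the test. Irf8 and Spi1 have filled red points at 7.69 and 5.39 and open green points, and Ctss, H2-Ob, H2-DMb2 and Lgmn are filled in both colours.

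Genes of the class I pathway, which presents peptides of the cell's own proteins, were set beside them. Of 16 measured, 11 were higher and 0 lower when CD27+ CMP were set against CD27- CMP, beside 12.1% and 10.3% of all genes, and the list median was 1.08 log2 against -0.03 over all genes. Among them were H2-M3, a nonclassical class I chain, at 2.02 log2 (adjusted p = 1.1e-06) and B2m, the shared light chain, at 0.51 log2 (adjusted p = 0.0084). The classical chains H2-K1 and H2-D1 differed by 0.06 and -0.25 log2 without passing. In GMP against MEP 9 were higher and 1 lower, beside 11.5% and 11.2% of all genes. In CD27+ CMP against GMP limma called 0, with 7 at an unadjusted p under 0.05, beside 2.58% of all genes called higher and 2.63% lower.

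Of 10 costimulatory and adhesion genes of antigen presenting cells, 3 were higher in CD27+ than in CD27- CMP, beside 12.1% of all genes. These were Icam1, an adhesion receptor, at 5.26 log2 (adjusted p = 5.8e-07), Cd48 at 3.24 log2 (adjusted p = 8.4e-07) and Cd1d1, which presents lipids, at 1.76 log2 (adjusted p = 0.0057). Of the 10, 6 spanned under 0.5 log2 over the 12 arrays, among them Cd80, Cd86, Cd40 and Cd83. In GMP against MEP 2 passed, both higher, beside 11.5% of all genes called higher. In CD27+ CMP against GMP limma called 0, with 2 at an unadjusted p under 0.05, beside 2.58% of all genes called higher and 2.63% lower.

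Markers of mature antigen presenting cells and lymphocytes moved in part with the same populations. Of 17 dendritic cell markers 9 were higher and 2 lower in CD27+ than in CD27- CMP, and the shares over all genes, 12.1% and 10.3%, also stand beside the marker counts that follow. Flt3, a cytokine receptor also of early progenitors, differed by 8.28 log2 and Itgax, which encodes CD11c, by 0.44 log2 (adjusted p = 0.0015), while Zbtb46 differed by -5.18 log2. Klrd1 read 2.09, 1.87 and 2.04 in CD27+ CMP and -0.04 to 0.02 on all other arrays. Cst3 read 1.29, 1.48 and 1.22 in CD27+ CMP and -0.60, -0.71 and -0.63 in CD27- CMP. Cd24a ran the other way, with -1.03, -0.71 and -0.65 against 0.11, 0.09 and 0.35. Batf3, Xcr1, Cd209a and Siglech, which mark dendritic cell subsets, differed by -0.01 to -0.08 log2 and did not pass. Of 11 mature macrophage markers 2 were higher, Csf1r by 6.92 log2 and Cd68 by 6.49 log2, while C1qa and Marco differed by 0.01 and -0.02 log2. Of 14 B cell markers Cd79b alone was higher, by 5.10 log2, with Cd79a at -0.01 and Ms4a1 at -0.20 log2, and 9 of the 14 were flat. Of 9 T and NK cell markers Nkg7 alone was higher, by 3.19 log2.

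Between CD27+ CMP and GMP, where H2-DMa, H2-DMb2 and H2-Ob also differed, 4 of 17 dendritic cell markers were higher, beside 2.58% of all genes. Flt3 by 5.41 log2 and Itgax by 0.44 log2 were among them. Macrophage markers were lower where they differed, Adgre1 by -2.45 log2 and Vcam1 by -4.89 log2, as was Nkg7 by -1.82 log2. The share of all genes called lower was 2.63%. Of the B cell markers limma called 0, 0 with an unadjusted p under 0.05. Each list was also summed on the linear scale, each marker as a multiple of its own median array. The 17 dendritic cell markers summed to 163 to 173 in CD27+ CMP, 20.3 to 22.6 in CD27- CMP, 20.3 to 23.6 in GMP and 20.9 to 26.0 in MEP. Flt3 alone made 136 to 149 of the sum in CD27+ CMP. The other 16 markers summed to 23.8 to 26.7 in CD27+ CMP, 19.8 to 22.2 in CD27- CMP, 16.1 to 20.6 in GMP and 20.5 to 25.5 in MEP. These sums include Zbtb46, which ran the other way and raised those of CD27- CMP and MEP. It read 2.43 to 3.00 log2 in CD27- CMP and 2.59 to 3.35 in MEP, against -2.48 to -2.43 in CD27+ CMP and GMP. The 11 macrophage markers summed to 33.6 to 36.5 in CD27+ CMP, 8.56 to 10.0 in CD27- CMP, 50.9 to 82.9 in GMP and 8.82 to 9.31 in MEP. Vcam1 alone made 13.3 to 57.7 of the sum in GMP. The other 10 markers summed to 31.9 to 35.5 in CD27+ CMP and 7.61 to 9.01 in CD27- CMP. They summed to 25.2 to 37.5 in GMP and 7.84 to 8.28 in MEP. Csf1r and Cd68 weighed on these sums. Csf1r read 3.70 to 3.75 log2 in CD27+ CMP and 2.65 to 3.50 in GMP. Cd68 read 3.37 to 3.84 log2 in CD27+ CMP and 2.67 to 3.75 in GMP. Both lay at -2.65 log2 or lower in CD27- CMP and MEP. Adgre1 read 2.46 to 2.56 log2 in GMP. Of the 11 macrophage markers 6 spanned under 0.5 log2 over all arrays. The 14 B cell markers summed to 17.8 to 21.5 in CD27+ CMP, 12.9 to 14.0 in CD27- CMP, 17.0 to 20.9 in GMP and 13.3 to 14.4 in MEP. The 9 T and NK cell markers summed to 10.6 to 14.0 in CD27+ CMP, 8.17 to 8.60 in CD27- CMP, 17.5 to 19.9 in GMP and 8.14 to 8.45 in MEP. Without Cd79b and Nkg7 these lists summed to 12.9 to 14.6 and 7.85 to 10.9 in CD27+ CMP and to 12.8 to 14.7 and 7.82 to 8.25 in GMP. The part of such cells in the values of H2-DMa, H2-Oa and their partners was not tested.

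The genes whose pattern was most like that of a member were found by Pearson r over the 12 arrays among 8293 genes with a range of at least 1 log2. For H2-DMa these were Clic1 with an r of 0.989, Nrm with 0.988 and Sh2d3c with 0.988. For H2-Oa they were Ptprcap with 0.940, Atp13a2 with 0.932 and Inka1 with 0.924. For H2-Ab1 they were Wars with 0.909, 1110065P20Rik with 0.883 and Polr2e with 0.883. The values of r describe these arrays, which fall into 4 populations of 3.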

How the data were processed

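Gene expression of 12 arrays was analysed. The deposited values are log2 values from GCRMA, as the submitters' processing notes name it. Its version is not given in the sources used here, nor is the logarithm's base, taken here as 2 since that is GCRMA's scale. Every probe set has its median over the arrays within 5e-07 of 0, so absolute signals are lost, and GCRMA draws weak signals towards background, which leaves the size of wide differences uncertain. The table held 0 control probe sets.

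The annotation gave 1 symbol to 34945 probe sets, several to 932 and none to 9160. Of the 34945, 34741 matched RefSeq GRCm38.p6 by gene number, and 0 symbols changed. Groups follow the labels. Differences were fitted with limma 3.58.1 in R 4.3.3 on all 12 arrays, with 1 mean per population and empirical Bayes moderation, tested two-sided, and adjusted by the Benjamini-Hochberg method over 45037 probe sets for the members and over 18193 genes (most variable probe set of each) for the lists. The threshold was an adjusted p under 0.05. A 7th contrast set the CD27+ against CD27- CMP difference minus the GMP against MEP difference. The number of arrays limits the precision. Between CD27+ and CD27- CMP the median SE over all probe sets, of which 51.1% are flat, was 0.0904 log2. For the probe sets of H2-DMa it was 0.29 and 0.27 log2 and for H2-Oa 0.39 log2. The fit was tested on simulated data.

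The 7 members, the 8 gene lists (rest of the class II pathway, class II transcription, class I pathway, costimulation, and markers of B cells, dendritic cells, mature macrophages and T and NK cells) and the rules were chosen with earlier results of these data known. Named genes are members, list genes, sort markers (a check added after the data were seen), and for each member spanning at least 1 log2 the 3 genes with the highest Pearson r. Alternatives were quantile normalization, median centring of arrays, only the 6 arrays compared, the replicate number as a block, array weights, robust moderation, a range of at least 0.5 log2, leaving out each array, and the mean of a gene's probe sets. The labels do not say what a replicate number shares. Deviations of same-numbered arrays correlated above 0.1 in all 3 pairs of CD27+ CMP with GMP (0.23 to 0.57) and of GMP with MEP (0.27 to 0.58). The numbers were therefore taken as pairing these populations, although the main fit holds no block. Calls of the main fit for these populations thus ignore that pairing, and the block is given as an alternative. Of the 9 pairs not above 0.1, 8 hold CD27- CMP, for which no pairing was taken, and 1 sets CD27+ CMP against MEP. The correlations of CD27+ CMP with MEP ran from 0.09 to 0.40, and shared numbers would pair them through GMP.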

Additional observations from a re-analysis of the deposited data

Results flagged for a closer look

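The difference between CD27+ and CD27- CMP was itself different from that between GMP and MEP, by limma's test of the 2 contrasts against each other, for 4 genes of the class II pathway and class II transcription lists, which hold 12 and 18 measured genes, beside 2.07% of all genes. H2-Ob, the beta chain of DO, had a CMP difference larger by 2.29 log2 (adjusted p = 0.029). Lgmn, legumain, exceeded by 3.04 log2 (adjusted p = 0.018), with all CD27+ CMP arrays high and the other 9 arrays near 0. Jak1, a kinase of interferon signalling, exceeded by 1.11 log2 (adjusted p = 0.014), with 0.03 log2 between the CMP fractions and -1.08 log2 between GMP and MEP. Ifngr1, the ligand-binding chain of the interferon gamma receptor, gave -1.61 log2 (adjusted p = 0.018), with -1.30 log2 between the CMP fractions and 0.31 log2 between GMP and MEP.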

How the results depend on the processing

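The counts of member probe sets called depended on the setting. Array weights, whose estimation stopped short of its tolerance, called 6 of the 15 between CD27+ and CD27- CMP. They called 6 between CD27+ CMP and GMP and 10 between CD27- CMP and GMP. Over all 45037 probe sets they called 23239, 7617 and 30200 in the same order. With quantile normalization 2 were called between GMP and MEP and 1 between CD27+ CMP and GMP. With a range of at least 0.5 log2, 2 were called between GMP and MEP and 2 between CD27- CMP and GMP. Among all probe sets of that range 7582 and 7448 were called. With only the 6 arrays compared, 2 were called between GMP and MEP and 0 between CD27+ CMP and GMP. Those fits called 6099 and 600 of all probe sets. Leaving out 1 array gave 0 to 2 between CD27+ CMP and GMP and 0 to 1 between CD27- CMP and MEP (Cd74, without CD27- CMP replicate 2). It gave 1 to 2 between CD27- CMP and GMP and 0 to 1 in the difference of the 2 contrasts. Over all probe sets these fits called 898 to 1419, 26 to 161, 5079 to 7892 and 302 to 539 in the same order. With the mean of a gene's probe sets, 1 class I gene and 1 costimulatory gene were called between CD27+ CMP and GMP, against 0 each. The sign turned for H2-Oa between GMP and MEP (-0.43 to 0.30 log2 with 1 array left out), for H2-DMa 1459872_x_at between CD27- CMP and MEP (-0.03 to 0.48 log2), for Ifngr2 between CD27+ CMP and GMP (-0.40 to 0.12 log2 with 1 array left out), and for Cd74 between CD27+ CMP and GMP (-0.01 to 0.01 log2 with 1 array left out), GMP and MEP (0.02 log2 under both array scalings) and CD27+ CMP and MEP (0.04 and 0.03 log2). The causes were not tested.

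Over all populations, correlations of same-numbered arrays ran from -0.33 to 0.58, those with CD27- CMP from -0.33 to 0.14, and 9 of 12 arrays correlated best with their own number. With the replicate block 6535 probe sets were called between CD27+ and CD27- CMP, against 6369 without it. The block gave an adjusted p of 0.072 for H2-DMa 1459872_x_at and 0.047 for H2-Oa between CD27+ CMP and GMP, and 0.074 for Ctsl. It changed no other call among the results it was run on.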
